A study of Mus musculus with 8 samples.

Results

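The p53 pathway was followed in cultured mouse tail tendon fibroblasts through 34 genes of p53 control, growth arrest, cell death, DNA repair and stress defence, out of 24982 genes in the deposited count table. They were taken by gene symbol from a list that had been drawn up with earlier results of these data known. All 34 passed the filter on low counts. RNA sequencing libraries came from ScxKO cells, in which Scx had been deleted (replicates 2, 3, 4 and 5), and from ScxWT cells, which still carried it (replicates 2, 3, 5 and 6). The Scx product, scleraxis, is a transcription factor of tendon cells. Both groups were of the C57Bl/6 strain and both had received 4HT (4-hydroxytamoxifen), so the drug did not differ between them. The sources used here give neither the way Scx was deleted, nor the age of the mice, nor any pooling. They do not tie a library to an animal or a culture of its own, so the p-values rest on a spread among libraries that could be technical.

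The protein p53, encoded by Trp53 in the mouse, is a transcription factor that is held at a low level by the ubiquitin ligase MDM2 and its partner MDM4. DNA damage and other stresses release it, largely through changes of the protein and not of its messenger RNA. It then raises genes that stop the cell cycle, genes that start apoptosis, genes of DNA repair, and Mdm2 itself, which closes a negative feedback loop. Many of these genes are also driven by p53-independent stress signals, and Mdm2, Cdkn1a and Ccng1 are widely used as readouts of p53 in fibroblasts.

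Since p53 binds a pair of decamer half-sites, promoters were searched for that pattern. The stretches that hold it show where the measured genes carry it near an annotated start. The half-site was the p53 half-site consensus, a palindrome that reads alike on both strands. A match was 2 half-sites with at most 13 bases between them, at most 2 mismatches in all, and the central C and G of each half-site intact. RefSeq promoters on GRCm38.p6 were found for 25 of the 34 genes, and the 250 bases upstream of each start were read. Pmaip1, Zmat3, Tnfrsf10b, Perp, Trp53inp1, Rrm2b, Xpc, Ddb2 and Rev3l had no entry. A pair stood in 5 of 33 member promoters (15.2%) and in 1097 of 32851 promoters of all genes (3.34%). A single perfect half-site stood in 10 of 33 (30.3%) and in 7.13% of all. Some of the 25 genes had more than 1 promoter. The genes were listed as p53 pathway genes and targets, so a higher share than in all promoters was built into the choice and is no result. The pair in Cdkn1a had 0 mismatches, which was so in 21 of all promoters. The 5 stretches are printed 5′ to 3′ on the gene's strand, with the pair of fewest mismatches in capitals. Lower-case letters can hold further half-sites. In Cdkn1a the bases directly after the second capital half-site form another one with 1 mismatch, and this adjoining pair also meets the rule. The Gadd45a stretch is kept to the pair because an annotated exon reaches into it. In GENCODE release M21 that exon covers 20 of the 26 bases, so most of this pair is upstream of the RefSeq start only. Ccng1 is outside the rule for printed genes, which asked for a called gene, and is shown because it holds the same pattern.
Cdkn1a, chr17:29090886-29090957, plus strand: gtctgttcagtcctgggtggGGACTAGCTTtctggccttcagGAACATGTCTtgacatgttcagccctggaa
Gadd45a, chr6:67037438-67037463, minus strand: GGACCTGGTTggctgaGGGCTAGCCC
Bax, chr7:45467059-45467119, minus strand: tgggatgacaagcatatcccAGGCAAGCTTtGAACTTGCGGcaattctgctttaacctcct
Sesn1, chr10:41887233-41887295, plus strand: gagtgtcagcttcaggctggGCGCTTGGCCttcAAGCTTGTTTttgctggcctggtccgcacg
Ccng1, chr11:40755442-40755501, minus strand: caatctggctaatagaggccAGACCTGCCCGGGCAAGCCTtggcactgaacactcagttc
Counted from the annotated start whose promoter holds them, the pairs began at position -73 in Cdkn1a, -56 in Gadd45a, -201 in Bax, -186 in Sesn1 and -195 in Ccng1. They had 2 mismatches in Gadd45a, Bax and Sesn1 and 1 in Ccng1. Cdkn1a and Sesn1 each had a second annotated start without a pair, with promoters at chr17:29093519-29093818 and chr10:41810324-41810623. The positions given for these 2 genes do not hold for that other start. A match says only that these letters lie in the window. The genes holding one went different ways in ScxKO cells, with Cdkn1a, Gadd45a and Bax higher, Sesn1 lower and Ccng1 not past the test.

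Scx separated the groups, with 0.152, 0.0468, 0.116 and 0.135 CPM (counts per library scaled by depth and TMM factor) in ScxKO replicates 2, 3, 4 and 5 and 7.66, 7.06, 10.1 and 6.82 CPM in ScxWT replicates 2, 3, 5 and 6, and values per library keep that order of replicates throughout. The libraries held 17343228 to 22178439 gene counts in ScxKO and 18408278 to 25180790 in ScxWT. Of 9 tendon fibroblast markers 8 were lower, with a summed level of 6554 to 7332 CPM in ScxKO and 9329 to 11868 CPM in ScxWT libraries. Among other cell types, endothelial markers, mostly Tek with Cldn5 at 0, summed to 49.5 to 54.1 CPM in ScxKO and 68.3 to 86.4 CPM in ScxWT libraries, and 1 of 3 tested was lower and 1 higher. Adipocyte markers, mostly Fabp4, summed to 73.1 to 80.7 CPM in ScxKO and 55.5 to 73.1 CPM in ScxWT libraries, with 1 of 4 higher. Leukocyte markers summed to 19.03 to 23.05 CPM in ScxKO and 17.1 to 20.1 CPM in ScxWT libraries, with 1 of 4 tested higher. Muscle markers (27.6 to 36.6 CPM in ScxKO, 35.1 to 41.5 CPM in ScxWT, Myh4 and Myod1 at 0), Schwann markers (31.4 to 35.8 CPM in ScxKO, 35.3 to 40.2 CPM in ScxWT) and keratinocyte markers (3.29 to 4.32 CPM in ScxKO, 2.75 to 4.01 CPM in ScxWT, Krt1 at 0) were low. Mural markers summed to 2134 to 2305 CPM in ScxKO and 2028 to 2427 CPM in ScxWT libraries, with 2 of 6 higher and 2 lower. The part of these markers in the results was not tested. In such bulk samples fewer cells of a type and less RNA per cell cannot be told apart. ScxWT replicate 5 stood apart from the other ScxWT libraries, and results that rest on it are given with and without it.

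Of the 34 pathway genes 11 rose and 3 fell in ScxKO cells, with Mdm2, Cdkn1a, Gadd45a, Tnfrsf10b, Pmaip1 and Gdf15 among those that rose. The test was edgeR's quasi-likelihood fit over 13125 genes, at a Benjamini-Hochberg adjusted p under 0.05. The calls make up 41.2% of the members and 28.5% of all genes tested. By direction that is 32.4% higher and 8.82% lower, beside 14.0% higher and 14.5% lower among all genes tested. Among genes with a mean level between those of the lowest and highest member, 30.6% were called, 15.6% higher and 15.0% lower. DESeq2 and limma-voom called the same 14 members in the same directions, beside 13.6% higher and 13.3% lower of all genes for DESeq2 and 14.2% and 14.3% for limma-voom. The changes were small: the members that rose did so by 9.93% to 44.7%, and those that fell did so by 11.4% to 22.4%. The median log2 change was 0.07 over the 34 members and -0.01 over all genes, and the median size of the change, without its sign, was 0.14 and 0.12 on the log2 scale. The 4 libraries of one group lay entirely on one side of the other group in 11 members, 9 higher and 2 lower, or 32.4%, beside 29.1% of all genes (14.8% higher and 14.3% lower). Without ScxWT replicate 5 the test called 14 higher and 5 lower, beside 18.3% and 17.5% (35.8% in all) of all genes, and 17 members did not overlap, beside 39.8%. With numbers 2, 3 and 5 alone, 3 libraries a group, 6 rose and 2 fell, beside 9.81% and 9.43%.

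**Figure D1:**
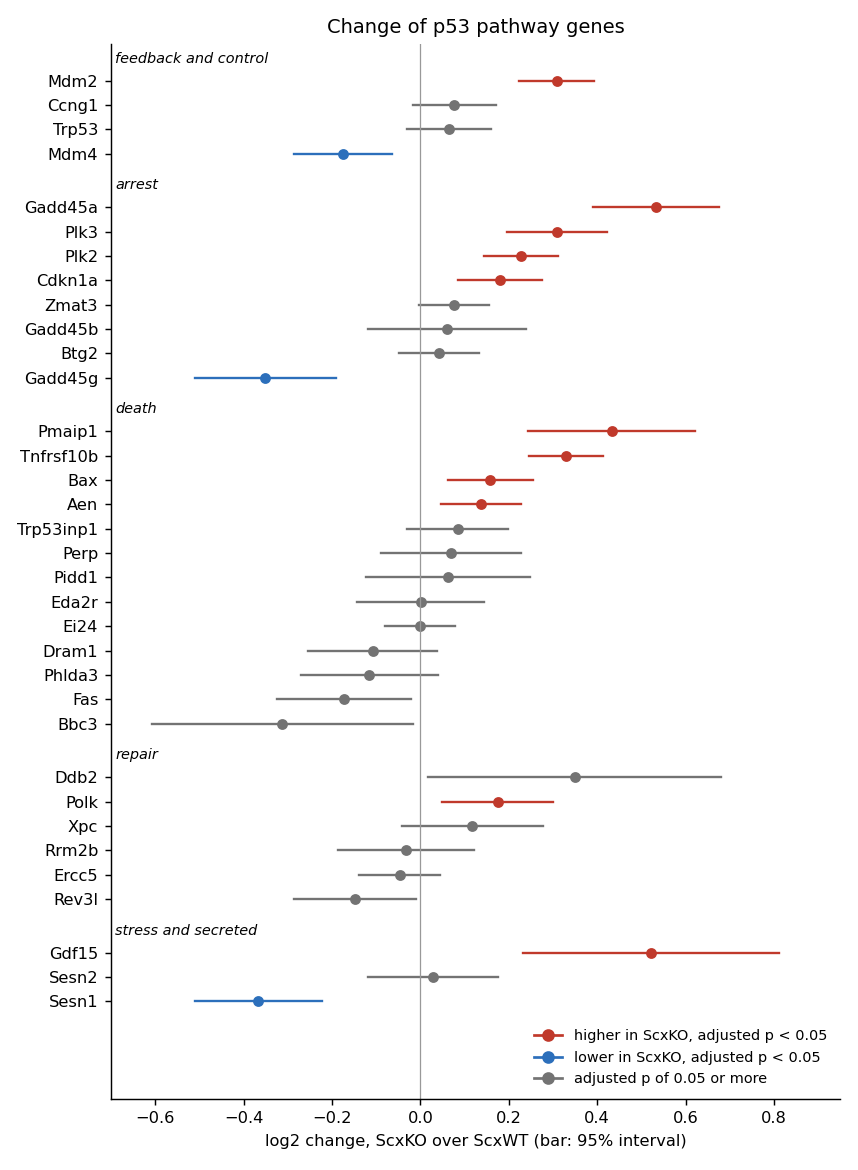
Log2 change of ScxKO over ScxWT cells for the 34 genes (x axis), grouped by role, with the 95% interval of the edgeR fit as a bar and the call as the colour. The 11 genes that rose include Gadd45a at 0.53 and Gdf15 at 0.52, and the 3 that fell are Sesn1, Gadd45g and Mdm4.

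Among the genes that hold p53 in check, the ligase gene Mdm2 rose and its relative Mdm4 fell, while Trp53 itself did not pass the test. Mdm2 stood at 292, 293, 305 and 304 CPM in the ScxKO libraries and at 250.3, 245, 229 and 239.7 CPM in the ScxWT libraries. No ScxKO library reached down to a ScxWT library, and the log2 change was 0.31 ± 0.04 (SE, edgeR adjusted p = 3.22e-05). Mdm4 stood at 73.3, 73.9, 70.8 and 73.8 CPM in the ScxKO libraries and at 87.6, 84.2, 73.7 and 84.2 CPM in the ScxWT libraries. Mdm4, whose protein blocks p53 without being an active ligase, changed by -0.17 ± 0.05 on the log2 scale (SE, edgeR adjusted p = 0.0198). The lowest ScxWT library, replicate 5, lay within the ScxKO range. The Mdm4 call ended without ScxKO replicate 4, at -0.16 (adjusted p = 0.0643), without ScxWT replicate 2, at -0.14 (adjusted p = 0.0839), and without ScxWT replicate 6, at -0.16 (adjusted p = 0.0526). Without ScxWT replicate 5 it was -0.22 (adjusted p = 1.32e-04). Trp53 stood at 149, 144, 149 and 150.1 CPM in the ScxKO libraries and at 137, 135, 154 and 141 CPM in the ScxWT libraries. Its log2 change was 0.06 ± 0.04 (SE, edgeR adjusted p = 0.309), with a 95% interval of -0.03 to 0.16, and the highest library of all was ScxWT replicate 5. Without that library Trp53 was called at 0.11 (adjusted p = 0.0204). Ccng1, the cyclin G1 gene whose product steers a phosphatase to MDM2, stood at 809, 810.3, 802 and 786 CPM in the ScxKO libraries and at 772, 752, 707 and 810.5 CPM in the ScxWT libraries. The groups overlapped, and its log2 change was 0.08 ± 0.04 (SE, edgeR adjusted p = 0.212), with an interval of -0.02 to 0.17. Once GC content and transcript length were corrected for, Ccng1 was called at 0.12 (adjusted p = 0.00963).

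Of 8 genes of growth arrest 4 rose and 1 fell, beside 14.0% higher and 14.5% lower of all genes tested. Cdkn1a, which encodes the cyclin-dependent kinase inhibitor p21, stood at 484, 453, 493 and 476 CPM in the ScxKO libraries and at 416, 402, 452 and 413 CPM in the ScxWT libraries. Its groups did not overlap, although the lowest ScxKO library, replicate 3, was next to the highest ScxWT library, replicate 5. The log2 change was 0.18 ± 0.04 (SE, edgeR adjusted p = 0.00640). With numbers 2, 3 and 5 alone, 3 libraries a group, it was 0.16 (adjusted p = 0.0620). Plk2 stood at 439, 447, 423 and 454 CPM in the ScxKO libraries and at 381, 391, 364 and 371 CPM in the ScxWT libraries. Plk2, a polo-like kinase gene induced by stress, rose by 0.23 ± 0.04 on the log2 scale (SE, edgeR adjusted p = 4.70e-04). Plk3 stood at 39.5, 38.0, 37.6 and 40.2 CPM in the ScxKO libraries and at 30.1, 29.9, 33.1 and 32.3 CPM in the ScxWT libraries, and this relative of Plk2 rose by 0.31 ± 0.05 on the log2 scale (SE, edgeR adjusted p = 4.41e-04). In both kinase genes every ScxKO library lay above every ScxWT library.

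The 3 Gadd45 genes, whose small acidic proteins bind stress kinases and cell cycle regulators, went apart. Gadd45a stood at 41.7, 41.1, 43.5 and 48.2 CPM in the ScxKO libraries and at 32.4, 29.3, 31.7 and 27.2 CPM in the ScxWT libraries. Gadd45a, the member of the family most often named as a p53 target, had a log2 change of 0.53 ± 0.07 (SE, edgeR adjusted p = 2.47e-05), the highest of the 34 genes, and its groups were well separated. Gdf15 was close to it, at 0.52. Without ScxWT replicate 5 Gdf15 was the higher, at 0.68 against 0.56, and so it was after the GC and length correction, at 0.57 against 0.46. Gadd45g stood at 128, 105, 112 and 115 CPM in the ScxKO libraries and at 139.9, 143, 172 and 131 CPM in the ScxWT libraries. Gadd45g fell, with a log2 change of -0.35 ± 0.07 (SE, edgeR adjusted p = 0.00231), and its highest ScxKO library, replicate 2, was just below its lowest ScxWT library, replicate 6. Without ScxWT replicate 5, its highest library, the Gadd45g change was smaller, at -0.26 (edgeR adjusted p = 4.08e-04). Gadd45b stood at 67.2, 61.4, 58.3 and 65.6 CPM in the ScxKO libraries and at 55.9, 61.1, 73.1 and 52.2 CPM in the ScxWT libraries. Gadd45b overlapped between the groups, with a log2 change of 0.06 ± 0.08 (SE, edgeR adjusted p = 0.634) and an interval of -0.12 to 0.24. Its highest library was ScxWT replicate 5, and without it Gadd45b was called at 0.17 (adjusted p = 0.0180). Btg2, an antiproliferative gene, stood at 223 ± 6.79 CPM in ScxKO and 217 ± 10.01 CPM in ScxWT cells (SD, n = 4 each) and Zmat3, an RNA-binding protein gene, at 211 ± 3.49 CPM in ScxKO and 201 ± 4.83 CPM in ScxWT cells. Their log2 changes were 0.04 ± 0.04 (SE, edgeR adjusted p = 0.505) and 0.08 ± 0.04 (SE, edgeR adjusted p = 0.148). Zmat3 did not overlap between the groups even so, with its lowest ScxKO library at 208 CPM and its highest ScxWT library at 205 CPM.

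Ratios within a library do not depend on scaling. The 6 pairs of relatives within the Mdm, Gadd45, Plk and Sesn genes were compared that way, a choice made after their values were seen. The log2 ratio of Mdm2 to Mdm4 counts was 2.03 ± 0.06 in ScxKO and 1.55 ± 0.06 in ScxWT libraries (SD, n = 4 each). The log2 ratio of Gadd45a to Gadd45g was -1.40 ± 0.15 in ScxKO and -2.28 ± 0.14 in ScxWT libraries, a difference of 0.88. Gadd45a over Gadd45b differed by 0.46, Gadd45b over Gadd45g by 0.42 and Sesn1 over Sesn2 by -0.40. In each of these 5 pairs the groups did not overlap. An exact permutation test gave p = 0.0286 for each of the 5 (adjusted p = 0.0343) and p = 0.286 for Plk2 over Plk3. Since the pairs were chosen after their values were seen, these p-values lend no support, and the differences are descriptions. The 3 Gadd45 ratios share genes and are not independent. Plk2 over Plk3 was 3.50 ± 0.03 in ScxKO and 3.59 ± 0.12 in ScxWT libraries and overlapped, a difference of -0.08. Without ScxWT replicate 5 the 6 differences kept their sign and ranged from -0.46 to 0.82.

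**Figure D2:**
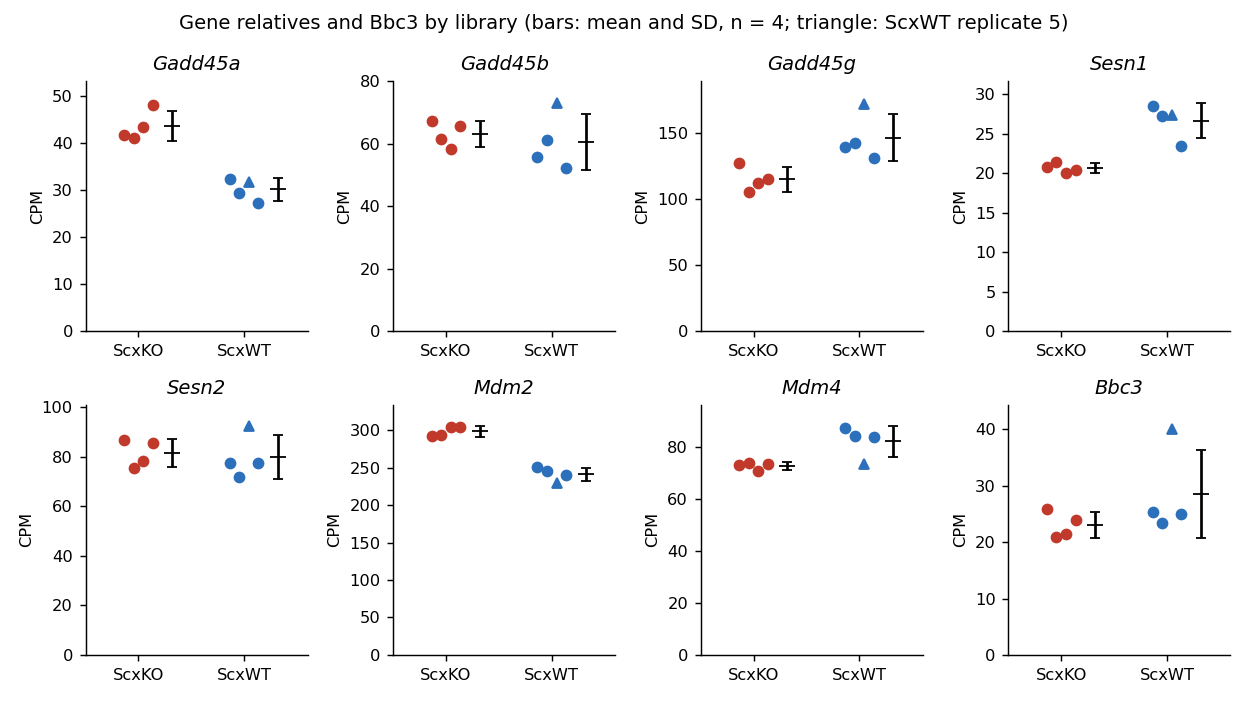
CPM per library (y axes start at 0) for the Gadd45, Sesn and Mdm relatives and for Bbc3, in ScxKO and ScxWT libraries, with mean and SD (n = 4 each). Gadd45a and Mdm2 are higher and Gadd45g and Sesn1 lower in ScxKO without overlap, and the triangle, ScxWT replicate 5, is the highest ScxWT point for Gadd45b, Gadd45g, Sesn2 and Bbc3.

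Of the 13 death genes 4 rose and 0 fell by edgeR, beside 14.0% higher and 14.5% lower of all genes tested. DESeq2 and limma-voom made the same calls. At an unadjusted p under 0.05, 4 were higher and 2 lower, beside 2503 and 2620 of all 13125 genes. Tnfrsf10b stood at 212, 207, 204 and 209 CPM in the ScxKO libraries and at 168, 169, 169 and 156 CPM in the ScxWT libraries. This gene of a TRAIL death receptor rose by 0.33 ± 0.04 on the log2 scale (SE, edgeR adjusted p = 1.56e-05), with the groups far apart. Pmaip1 stood at 25.2, 24.8, 33.96 and 27.5 CPM in the ScxKO libraries and at 21.6, 20.9, 19.1 and 20.8 CPM in the ScxWT libraries. Pmaip1, which encodes the BH3-only protein NOXA, rose by 0.43 ± 0.09 on the log2 scale (SE, edgeR adjusted p = 0.00173), and ScxKO replicate 4 was its highest library. Both genes were called in each of the 18 refits with other settings or without single libraries. The 8 members called in every refit lie on GRCm38, in GENCODE release M21, as follows: Mdm2 at chr10:117688875-117710758 (minus strand), Sesn1 at chr10:41809935-41908424 (plus strand), Gadd45a at chr6:67035096-67037457 (minus strand), Gadd45g at chr13:51846678-51848468 (plus strand), Plk2 at chr13:110395046-110400844 (plus strand), Plk3 at chr4:117128655-117133963 (minus strand), Pmaip1 at chr18:66458533-66465565 (plus strand) and Tnfrsf10b at chr14:69767472-69784411 (plus strand).

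Smaller rises were seen in Bax and Aen. Bax stood at 234, 223, 244 and 232 CPM in the ScxKO libraries and at 200.0, 208, 225 and 204 CPM in the ScxWT libraries. Bax, the pore-forming effector of the mitochondrial death route, rose by 0.16 ± 0.04 on the log2 scale (SE, edgeR adjusted p = 0.0153), while ScxWT replicate 5 lay above the lowest ScxKO library. Its call ended without ScxKO replicate 4, at 0.14 (adjusted p = 0.0582), and without ScxWT replicate 2, at 0.14 (adjusted p = 0.0575). Aen stood at 146, 136, 145 and 148 CPM in the ScxKO libraries and at 127, 127, 137 and 132 CPM in the ScxWT libraries. Aen, an apoptosis-enhancing nuclease gene, rose by 0.14 ± 0.04 on the log2 scale (SE, edgeR adjusted p = 0.0252), and ScxWT replicate 5 just passed the lowest ScxKO library. The Aen call ended without ScxKO replicate 2 (0.13, adjusted p = 0.0640), 4 (0.13, 0.0610) or 5 (0.13, 0.0811), without ScxWT replicate 2 (0.13, 0.0773) or 3 (0.12, 0.0548), and with upper-quartile scaling (0.11, 0.0583).

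The other 9 death genes did not pass the test. Bbc3 stood at 25.9, 20.96, 21.4 and 23.9 CPM in the ScxKO libraries and at 25.4, 23.5, 40.1 and 25.0 CPM in the ScxWT libraries. Bbc3, the gene of the BH3-only protein PUMA, was thus highest in a single library, ScxWT replicate 5, and the other libraries of both groups covered a common range. Its log2 change was -0.31 ± 0.14 (SE, edgeR adjusted p = 0.106) with all libraries and -0.09 (adjusted p = 0.340) without that library. Bbc3 was called lower with no filter on low counts, at -0.31 (adjusted p = 0.0497), and after the GC and length correction, at -0.19 (adjusted p = 0.0463). Fas stood at 20.5, 19.6, 16.9 and 18.6 CPM in the ScxKO libraries and at 20.8, 22.7, 20.1 and 21.9 CPM in the ScxWT libraries. Fas, a death receptor gene, had a log2 change of -0.17 ± 0.07 (SE, edgeR adjusted p = 0.0823), with ScxWT replicate 5 and ScxKO replicate 2 in the overlap. It was called lower without ScxWT replicate 5, at -0.20 (adjusted p = 0.0343), after the GC and length correction, at -0.21 (adjusted p = 0.0164), and with upper-quartile scaling, at -0.20 (adjusted p = 0.0499).

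Phlda3, an inhibitor of AKT signalling, stood at 192 ± 8.35 CPM in ScxKO and 208 ± 28.7 CPM in ScxWT cells (SD, n = 4 each), with ScxWT replicate 5 at 250.5 CPM. Its log2 change was -0.12 with an interval of -0.27 to 0.04, and -0.0086 without that library. Perp, a desmosomal membrane protein gene, had 17.0 ± 1.402 CPM in ScxKO and 16.2 ± 0.720 CPM in ScxWT cells. Trp53inp1, a stress protein gene of autophagy and death, had 128 ± 6.24 CPM in ScxKO and 120.4 ± 8.92 CPM in ScxWT cells, and it was called at 0.18 (adjusted p = 0.00568) after the GC and length correction. Pidd1, which builds the complex that activates caspase-2, and the autophagy gene Dram1 had log2 changes of 0.06 and -0.11, with intervals of -0.12 to 0.25 and -0.25 to 0.04. Ei24, an endoplasmic reticulum protein gene, and Eda2r, an X-linked receptor gene of the tumour necrosis factor receptor family, lay closest to no change. Their intervals were -0.08 to 0.08 and -0.14 to 0.14 on the log2 scale. For Perp and Trp53inp1 the intervals were -0.09 to 0.23 and -0.03 to 0.20.

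Of the 6 repair genes 1 rose and 0 fell by edgeR, beside 14.0% higher and 14.5% lower of all genes tested. DESeq2 and limma-voom made the same calls. At an unadjusted p under 0.05, 2 were higher and 1 lower, beside 2503 and 2620 of all 13125 genes. Polk stood at 81.5, 85.7, 80.1 and 77.9 CPM in the ScxKO libraries and at 76.7, 77.1, 63.4 and 71.3 CPM in the ScxWT libraries. Polk, the gene of the translesion polymerase kappa, rose by 0.17 ± 0.06 on the log2 scale (SE, edgeR adjusted p = 0.0368), and the groups touched closely, with ScxWT replicate 3 next below ScxKO replicate 5. Its call ended without ScxKO replicate 2 (0.18, adjusted p = 0.0728), 3 (0.15, 0.108) or 4 (0.18, 0.0663), without ScxWT replicate 6 (0.17, 0.0717), and with upper-quartile scaling (0.15, 0.0704). Ddb2 stood at 4.00, 4.49, 5.399 and 5.08 CPM in the ScxKO libraries and at 3.64, 4.39, 4.31 and 2.58 CPM in the ScxWT libraries. Ddb2, a damage sensor of nucleotide excision repair, was the lowest of the 34 in CPM, and its log2 change of 0.35 ± 0.16 (SE, edgeR adjusted p = 0.108) had the wide interval of 0.02 to 0.68. Without ScxWT replicate 5 it was called at 0.44 (adjusted p = 0.0314). Without ScxWT replicate 6, its lowest library, the log2 change was 0.21 (adjusted p = 0.283), and with numbers 2, 3 and 5 alone it was 0.15 (adjusted p = 0.519). Rev3l stood at 39.1, 45.7, 38.1 and 40.6 CPM in the ScxKO libraries and at 44.7, 49.4, 41.8 and 45.9 CPM in the ScxWT libraries. Rev3l, the catalytic subunit of polymerase zeta, had a log2 change of -0.15 ± 0.07 (SE, edgeR adjusted p = 0.103) with all libraries. It was called lower without ScxKO replicate 3, at -0.21 (adjusted p = 0.0288), and without ScxWT replicate 5, at -0.18 (adjusted p = 0.0194). Xpc, which recognises bulky lesions, Ercc5, an excision nuclease gene, and Rrm2b, the p53-inducible ribonucleotide reductase subunit, had log2 changes of 0.12, -0.05 and -0.03. Their intervals were -0.04 to 0.28, -0.14 to 0.05 and -0.19 to 0.12, and their groups overlapped.

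The stress genes divided. Gdf15 stood at 18.2, 15.0, 19.5 and 21.8 CPM in the ScxKO libraries and at 11.9, 9.79, 16.6 and 13.2 CPM in the ScxWT libraries. Gdf15, a secreted stress cytokine, rose by 0.52 ± 0.14 on the log2 scale (SE, edgeR adjusted p = 0.00905). The lowest ScxKO library, replicate 3, lay below the highest ScxWT library, replicate 5. Without that ScxWT library the log2 change was 0.68 (adjusted p = 4.50e-05), and with numbers 2, 3 and 5 alone it was 0.51 (adjusted p = 0.0578). Sesn1 stood at 20.9, 21.4, 20.1 and 20.4 CPM in the ScxKO libraries and at 28.6, 27.3, 27.4 and 23.5 CPM in the ScxWT libraries. Sesn1, a sestrin gene that dampens growth signalling under stress, changed by -0.37 ± 0.07 on the log2 scale (SE, edgeR adjusted p = 7.64e-04), the lowest value of the 34 genes with all libraries, and every ScxKO library lay below every ScxWT library. Without ScxKO replicate 2 Gadd45g was lower, at -0.40 against -0.37. Sesn2 stood at 86.8, 75.5, 78.1 and 85.4 CPM in the ScxKO libraries and at 77.6, 71.7, 92.4 and 77.4 CPM in the ScxWT libraries. Its relative Sesn2 overlapped between the groups, with a log2 change of 0.03 ± 0.07 (SE, edgeR adjusted p = 0.799) and an interval of -0.12 to 0.18. Without ScxWT replicate 5, its highest library, the Sesn2 change was 0.11 (edgeR adjusted p = 0.0793).

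**Figure D3:**
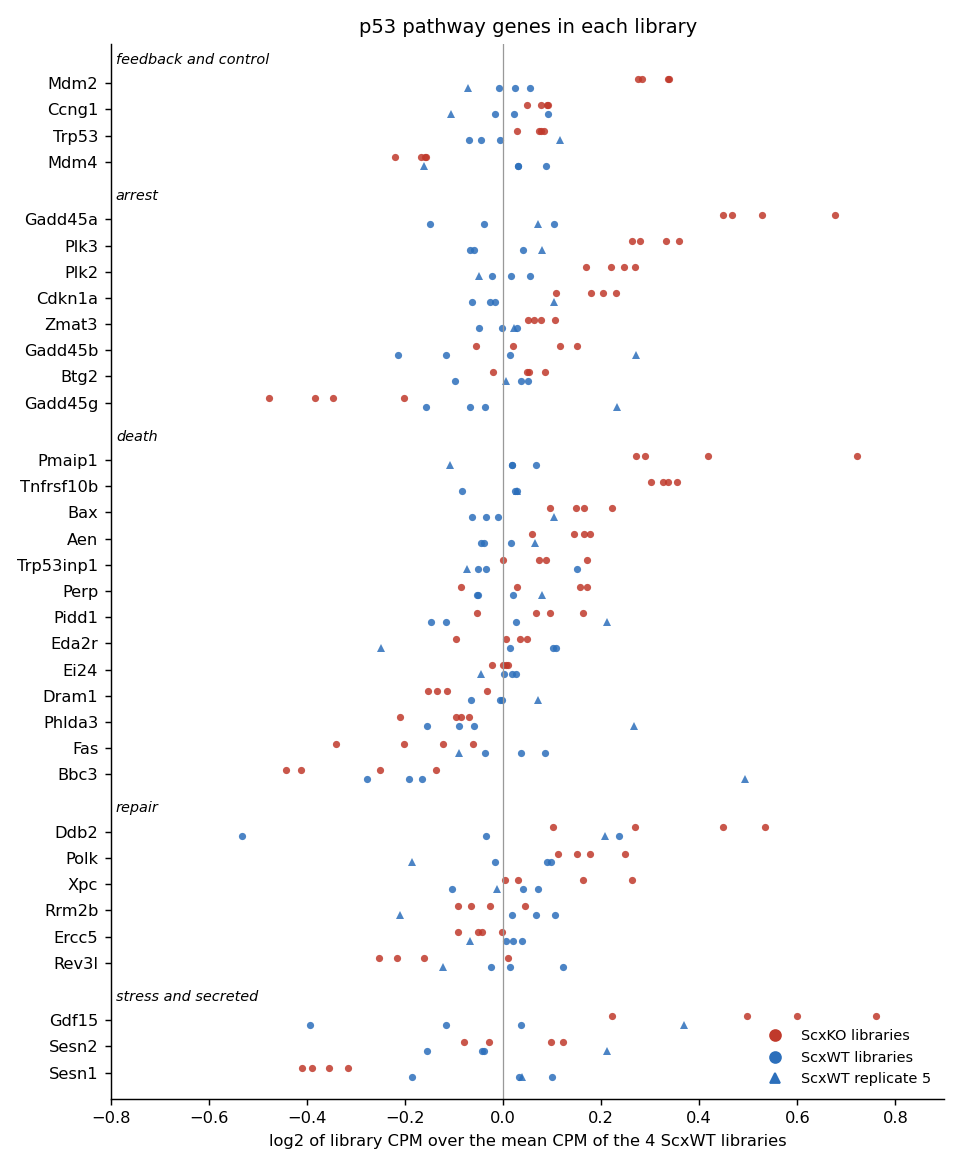
Each library's level of the 34 genes as log2 of its CPM over the mean of the 4 ScxWT libraries (x axis), ScxKO in red above ScxWT in blue, with ScxWT replicate 5 as a triangle. The groups are apart for 11 genes, Mdm2, Gadd45a and Tnfrsf10b among them, and the triangle lies outside the other ScxWT libraries for 28 genes. This last count was not made over all genes.

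Levels differed far more between the genes than between the groups. As a mean over the 8 libraries per kilobase of exon (RPKM from the TMM-scaled CPM), Ccng1 was highest at 222, followed by Bax at 140.4, Phlda3 at 128, Cdkn1a at 126 and Gadd45g at 112 RPKM. Mdm2 stood at 53.1 and Trp53 at 35.8 RPKM. The lowest were Ddb2 at 1.55, Rrm2b at 2.57 and Pidd1 at 3.10 RPKM. Counts of 7 members could be affected by another gene that shares exon bases with them in GENCODE release M21. Reads in the shared bases could have been added to the member or set aside as ambiguous, and the sources used here do not say which. For 6 of these the other gene lies on the opposite strand, and the sources used here do not say whether counting used strand. They are Cdkn1a, Gadd45a, Plk3, Ei24, Rrm2b and Ddb2, where Ddb2 shares 652 bases with Acp2, while Bax shares 192 bases with Gm45808 on its own strand.

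ScxWT replicate 5 lay outside the range of the other ScxWT libraries in 28 of the 34 genes, above it in 15 and below it in 13. The same count was not made over all genes, so it does not set the members apart. Its median distance from the group mean was 0.10 on the log2 scale over the members and 0.11 over all genes, while in the other 7 libraries it was 0.03 to 0.06 over the members. The members' GC content went with that distance. Across the 34 genes, which share the same library, Pearson's r between the GC content of the longest transcript and the deviation of ScxWT replicate 5 was 0.848 and Spearman's rho 0.860, and r was 0.609 across 13024 genes. For the other libraries r over the members ran from -0.728 in ScxWT replicate 2 to 0.433 in ScxKO replicate 2. Each deviation was taken from the mean of its own group, so the values of libraries in a group are tied to each other. A negative r in another ScxWT library is thus in part the mirror of replicate 5. GC-rich Bbc3 at 65.2% and Gdf15 at 61.3% were 0.70 and 0.52 higher on the log2 scale in ScxWT replicate 5 than in the mean of the other ScxWT libraries. GC-poor Eda2r at 40.9% and Rrm2b at 39.4% were -0.32 and -0.27 from it. The log2 changes between ScxKO and ScxWT had an r of -0.0567 with GC content across the 34 genes. Without ScxWT replicate 5 that r was 0.178 and rho 0.214. With GC content and transcript length corrected for, 13 members were higher and 5 lower, beside 18.6% and 19.0% of all genes (37.6% in all), and all 14 calls of the uncorrected fit were kept.

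**Figure D4:**
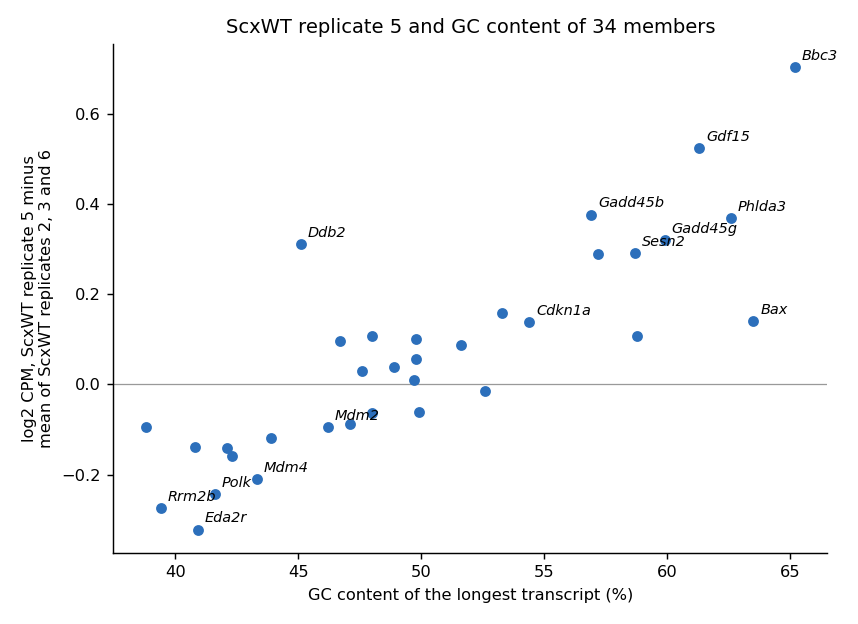
GC content of the longest transcript in percent (x axis) against the log2 CPM of ScxWT replicate 5 minus the mean of ScxWT replicates 2, 3 and 6 (y axis), 1 point per member. Points climb with GC content, from Eda2r at -0.32 to Bbc3 at 0.70, with Ddb2 above and Bax below the trend.

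Other genes of the pathway were described through lists that do not overlap with the members. Of 39 further genes catalogued as p53 targets, mostly in human cells, 12 rose and 5 fell, beside 14.0% and 14.5% of all genes tested. Their median log2 change was 0.04. Steap3, a metalloreductase gene, stood at 43.4 ± 1.96 CPM in ScxKO and 29.5 ± 2.39 CPM in ScxWT cells (SD, n = 4 each) and rose by 0.55 ± 0.06 on the log2 scale (SE, edgeR adjusted p = 7.21e-06). The death gene Bid rose by 0.40 on the log2 scale and the antiproliferative gene Tob1 by 0.24. The cell cycle repressor gene E2f7 had 10.7 ± 0.568 CPM in ScxKO and 17.1 ± 1.26 CPM in ScxWT cells and changed by -0.68 ± 0.08 on the log2 scale (SE, edgeR adjusted p = 8.62e-06). The Kit ligand gene Kitl changed by -0.54 on the log2 scale, Cmbl by -0.39 and the spindle gene Ckap2 by -0.31. Without ScxKO replicate 4 the counts were 7 higher and 3 lower, and 3 fell also without ScxKO replicate 2 or ScxWT replicate 2. Without ScxWT replicate 2 the count that rose was 8. Upper-quartile scaling gave 8 higher and 7 lower, and the GC and length correction 11 higher and 9 lower.

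Genes upstream of p53 were mostly lower or not past the test. Of 20 sensors and checkpoint kinases of DNA damage 1 rose and 8 fell, beside 14.0% and 14.5% of all genes tested. Their median log2 change was -0.14, beside -0.01 for all genes. The replication checkpoint adaptor gene Clspn changed by -0.67 on the log2 scale, the repair gene Brca1 by -0.49, the damage mediator gene Mdc1 by -0.33 and Topbp1, an activator of ATR, by -0.27, while the checkpoint clamp gene Rad9a rose by 0.35 on the log2 scale. Without ScxWT replicate 6 the count that fell was 5, beside 12.4% of all genes, and without ScxWT replicate 5 it was 11, beside 17.5%. Of 19 regulators and relatives of p53, edgeR called 0 in either direction, beside 28.5% of all genes tested. At an unadjusted p under 0.05, 1 was higher and 1 lower, beside 2503 and 2620 of all 13125 genes. DESeq2 and limma-voom each called 1 higher, beside 13.6% and 14.2% of all genes. The count was 2 higher without ScxWT replicate 5 and 1 higher without ScxWT replicate 6, beside 18.3% and 12.6%. It was 1 lower without ScxKO replicate 2 or ScxWT replicate 3, beside 12.4% and 13.6%. After the GC and length correction it was 4 higher and 2 lower, beside 18.6% and 19.0%.

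Of 19 other caspases, BCL2 family genes and their partners 2 rose and 3 fell, beside 14.0% and 14.5% of all genes tested. Bcl2l1, which encodes the survival protein BCL-XL, had 216 ± 6.23 CPM in ScxKO and 171 ± 5.34 CPM in ScxWT cells (SD, n = 4 each) and rose by 0.33 ± 0.04 on the log2 scale (SE, edgeR adjusted p = 1.56e-05), and the death adaptor gene Fadd rose by 0.24 on the log2 scale. Bcl2l11, the gene of the BH3-only protein BIM, had 9.28 ± 1.10 CPM in ScxKO and 14.5 ± 1.33 CPM in ScxWT cells and changed by -0.65 ± 0.10 on the log2 scale (SE, edgeR adjusted p = 1.18e-04). Casp2 changed by -0.31 on the log2 scale and the caspase inhibitor gene Xiap by -0.29. Of 15 other excision and translesion repair genes 1 rose and 1 fell, beside the same 14.0% and 14.5%. Gtf2h1 of the transcription factor TFIIH rose, at 0.34, and the polymerase gene Polh fell, at -0.24. The count that fell was 0 without ScxKO replicate 2 or 5, beside 12.4% and 10.8% of all genes. It was 0 also without ScxWT replicate 3 or 6, beside 13.6% and 12.4%. Without ScxWT replicate 5, 2 rose, beside 18.3%.

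Cell cycle genes, of the kind that p53 lowers through p21 and the DREAM repressor complex in published work, moved together. Of 26 such genes 25 fell and 0 rose by edgeR, beside 14.5% lower and 14.0% higher of all genes tested. At an unadjusted p under 0.05, 0 were higher, beside 2503 of all 13125 genes. DESeq2 and limma-voom called 0 higher and 24 lower each, beside 13.3% lower of all genes for DESeq2 and 14.3% for limma-voom. The list had a median log2 change of -0.43. Their summed level was 1037 to 1152 CPM in ScxKO and 1325 to 1586 CPM in ScxWT libraries. Mcm6 and Mcm5, helicase genes of DNA replication, changed by -0.55 ± 0.05 (SE, edgeR adjusted p = 1.51e-06) and -0.64 ± 0.07 (SE, edgeR adjusted p = 5.32e-06) on the log2 scale. Rrm1, a ribonucleotide reductase gene, changed by -0.46 on the log2 scale and the cyclin gene Ccna2 by -0.58. The exception was E2f1, at 0.06, which did not pass the test and is named by that exception after its values were seen. Without ScxWT replicate 5 the list had 1 gene higher and 25 lower, beside 18.3% and 17.5% of all genes. The part of the cycle genes in the change of the 34 members was not tested.

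**Figure D5:**
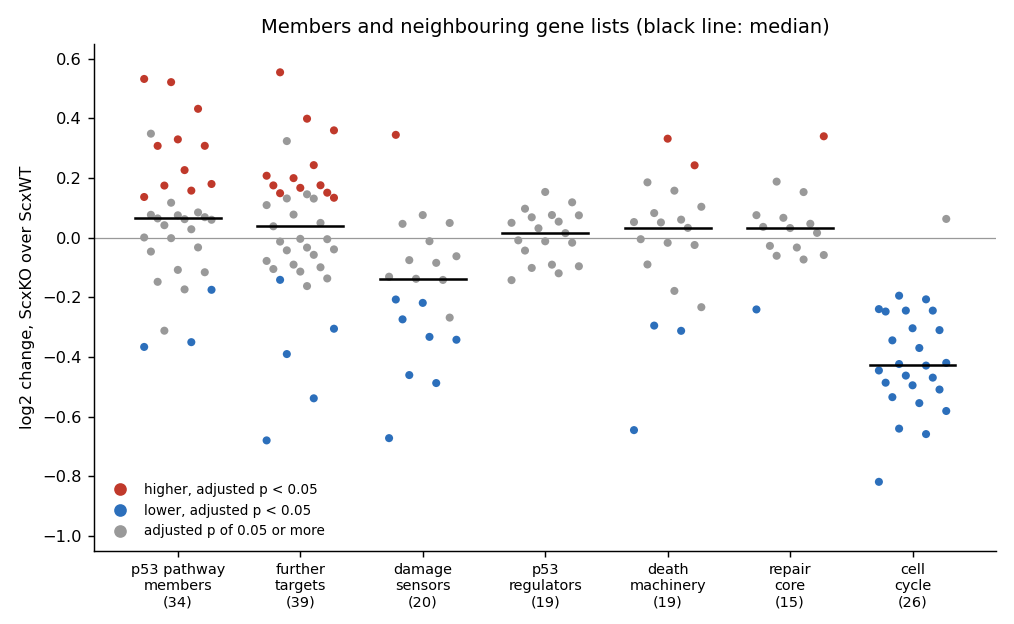
Log2 change of ScxKO over ScxWT (y axis) for each tested gene of the 34 members and of 6 neighbouring lists (x axis, number of genes in brackets), coloured by call, with the median as a black line. The members' median is 0.07, that of the cell cycle list -0.43 and that of the damage sensors -0.14.

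The authors' deposited table, made from other counts of these samples, was set beside these calls as a description. It held all 34 genes and gave 14 higher and 4 lower at an adjusted p under 0.05, beside 15.1% and 14.1% (29.2% in all) of its 14511 genes. Between the authors' deposited table and the edgeR fit 30 of 34 calls were the same, and 4 genes were called in that table alone. In that authors' deposited table these 4 were Ccng1 at a log2 change of 0.13, Zmat3 at 0.09, Trp53inp1 at 0.14 and Fas at -0.20. Cdkn1a had a log2 change of 0.21 in the authors' deposited table and 0.18 here.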

How the data were processed

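RNA was measured in 4 ScxKO and 4 ScxWT libraries, grouped by their titles. Per the submitters' processing notes, STAR, FastQC and DESeq2 were used with the build mm10 (versions, counter, annotation and strand use: not given in the sources used here). The authors deposited raw whole-number counts per gene symbol, which fed every test, and a comparison table with normalized mean counts (a coverage-type signal), log2 fold changes, standard errors and statistics (scores) and p-values, per the file headers. Rows for no feature and ambiguous reads took 7.44% to 8.67% and 0.490% to 0.567% of reads and were left out. The deposited log2 changes were read as ScxKO over ScxWT, in which Scx is negative. At the median gene the authors' mean signal stood at 1.26 times the raw mean count, so that table rests on other counts.

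Genes passed edgeR's filterByExpr (minimum count 10, total 15). TMM factors scaled the 13125 genes left, and a quasi-likelihood fit (R 4.3.3, edgeR 4.0.16) with group as its term was adjusted by Benjamini-Hochberg at 0.05. Standard errors are the log2 change over the square root of F, and intervals are 95%. The common biological coefficient of variation was 5.50%. Alternatives used DESeq2 1.42.0, limma 3.58.1, other scalings and filters, thresholds of 0.01 and 0.1, a replicate block and left-out libraries; the GC and length correction (natural splines with 5 degrees of freedom, 13024 genes with values), leaving out ScxWT replicate 5 with ScxKO replicate 4, and the ratios of relatives were added after the data were seen. Members and lists were chosen with earlier results of these data known. Named genes were the members, Scx and, from each of 6 lists, up to 4 called genes per direction with the smallest p and a mean of at least 1 CPM; 1 gene that this rule names is not reported here. The fit was checked on simulated counts.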

Additional observations from a re-analysis of the deposited data

Results flagged for a closer look

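In 3 of 70 groups of 4 libraries, those of Scx and the 34 members in ScxKO and ScxWT cells, a single library lay far from the other 3 by Dixon's criterion, and chance flags about 1 group in 20. Bbc3 stood at 40.1 CPM in ScxWT replicate 5, against 23.5 to 25.4 CPM in the other ScxWT libraries. Tnfrsf10b stood at 156 CPM in ScxWT replicate 6, against 168 to 169 CPM in the others. Trp53inp1 stood at 134 CPM in ScxWT replicate 2, against 114 to 117 CPM in the others.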

How the results depend on the processing

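Over 18 refits 8 of the 14 called members kept their call each time: Mdm2, Gadd45a, Gadd45g, Plk2, Plk3, Pmaip1, Tnfrsf10b and Sesn1. The same count was not made over all called genes, so whether members kept calls more often than other genes is not known. Leaving out single libraries gave 8 to 14 members higher, 2 to 5 lower and 11 to 17 without overlap, beside 11% to 18.3%, 10.8% to 17.5% and 31.3% to 39.8% of all genes. Numbers 2, 3 and 5 alone gave 6 higher, the GC and length correction 5 lower, and leaving out ScxWT replicate 5 and ScxKO replicate 4 gave 18 without overlap, beside 43.5% of all genes. Numbers 2, 3 and 5 alone ended the calls of Cdkn1a, Mdm4, Bax, Aen, Polk and Gdf15. No called member changed sign. Members near 0 did: Eda2r to -0.023 with upper-quartile scaling, -0.0013 with the stricter filter and -0.040 without ScxWT replicate 5 and ScxKO replicate 4. Ei24 went to 0.00092 with no filter, 0.011 with the replicate block and 0.014 with numbers 2, 3 and 5. Rrm2b went to 0.018 in each of those last settings and 0.039 after the GC and length correction, and Pidd1 to -0.0043 with numbers 2, 3 and 5. Without single libraries the log2 change of Sesn2 ran over -0.016 to 0.11, Eda2r -0.069 to 0.040, Ei24 -0.011 to 0.0095, Gadd45b -0.0037 to 0.17 and Rrm2b -0.094 to 0.0078. The causes were not tested. Same-numbered libraries correlated at -0.0602, 0.156 and 0.0568 in their deviations, so the numbers were not taken as pairs, and ScxKO replicate 2 correlated best with another number. The replicate block gave 9 higher and 3 lower, beside 11.9% and 12.8% of all genes; Mdm4 (adjusted p = 0.0642), Bax (0.0820) and Aen (0.0520) were then not called, and Bbc3 was (0.00728). Thresholds of 0.01 and 0.1 gave 8 and 11 higher, beside 9.07% and 17.7% of all genes, and 2 and 4 lower, beside 8.71% and 18.6%. Ddb2 was not tested under the stricter filter. Depth limits Ddb2 most, at 59 to 113 counts a library.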
